A study of Mus musculus with 24 samples.

Results

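The peak lists for H3K27me3 and H3K27ac in Shh-/- forelimb buds were compared with each other. These conditions make up 7 of the 24 libraries of the study, chosen by their labels alone: 2 H3K27ac immunoprecipitations with 1 input library, and 2 H3K27me3 immunoprecipitations with 2 input libraries. The study used ChIP-seq, in which DNA bound to a modified histone is precipitated and sequenced, to map histone marks in mouse limb buds with and without Sonic hedgehog (Shh). All 7 libraries came from whole forelimb buds of Shh-/- embryos on the Swiss Webster background at E10.5, between 32 and 35 somites, with about 400000 cells per immunoprecipitation. The embryos lacked Shh in every cell, and by the study's methods the limb buds of several embryos were pooled for each immunoprecipitation. Each mark has 1 list for both of its replicates, so no test between replicates can be made. The 95% Wilson intervals given here cover counting error only. The depth of the libraries is unknown from the lists. Lists of H3K4me2 in Shh-/- limbs, of H3K27ac in limbs labelled wild-type and of H3K27ac in NIH3T3 fibroblasts treated with DMSO serve for comparison.

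H3K27me3 is trimethylation of lysine 27 of histone H3, deposited by Polycomb repressive complex PRC2 at silenced genes, many of them developmental regulators with CpG islands. H3K27ac is acetylation of the same lysine and marks active promoters and enhancers. A single histone tail cannot carry both, but a whole limb bud holds many cell states, and each cell has a pair of alleles. Peaks of both marks at a site therefore cannot be told apart as different nucleosomes, alleles or cells.

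The H3K27me3 list held 20846 peaks, of which 20830 lay on chromosomes 1 to 19, X and Y and were used, and the H3K27ac list held 43916. H3K27me3 peaks covered 10482100 bp (0.385% of these chromosomes), and H3K27ac peaks covered 19692300 bp (0.723%). The median width was 150 bp for H3K27me3 and 250 bp for H3K27ac, and the widest peaks were 67050 bp and 19800 bp. An FDR under 0.05 was reached by 47.2% of the H3K27me3 peaks and by 94.1% of the H3K27ac peaks. The tissue label was checked at marker genes. Tbx5, the forelimb T-box factor, had an H3K27ac peak of rank 17 in its window of 10 kb on either side of the transcription start site (TSS), whereas Pitx1 and Isl1, which act in the hindlimb, had H3K27me3 and no H3K27ac there. The third hindlimb marker, Tbx4, had 8600 bp of H3K27me3 and also 1128 bp of H3K27ac. Actb, which encodes beta-actin, had 2900 bp of H3K27ac and no H3K27me3. Peak positions do not check the Shh genotype itself.

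Segments in which peaks of both marks coincide are shown first. Of the longest such segments that do not touch an untranslated region, 4 are shown, chosen by length and, among equal lengths, by H3K27me3 score, which leaves out an equal segment of 1200 bp near Hoxd10. They lay beside or in Lmx1b, which specifies dorsal limb identity, in Hoxa10, a homeobox gene of the limb, and in Grb10, an imprinted gene for a growth-restraining adaptor. The sequences are 200 bases from the centre of each segment, on the forward strand of mm10, with CpG dinucleotides in capitals.
Lmx1b upstream: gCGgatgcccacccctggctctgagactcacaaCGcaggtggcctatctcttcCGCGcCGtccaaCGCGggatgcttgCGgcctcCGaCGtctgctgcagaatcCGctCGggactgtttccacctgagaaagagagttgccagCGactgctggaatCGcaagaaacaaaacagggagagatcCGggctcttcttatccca
Hoxa10: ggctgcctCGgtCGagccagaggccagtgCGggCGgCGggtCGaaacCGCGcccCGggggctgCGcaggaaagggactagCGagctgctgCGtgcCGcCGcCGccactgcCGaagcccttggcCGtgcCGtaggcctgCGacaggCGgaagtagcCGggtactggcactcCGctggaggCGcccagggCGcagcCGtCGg
Grb10: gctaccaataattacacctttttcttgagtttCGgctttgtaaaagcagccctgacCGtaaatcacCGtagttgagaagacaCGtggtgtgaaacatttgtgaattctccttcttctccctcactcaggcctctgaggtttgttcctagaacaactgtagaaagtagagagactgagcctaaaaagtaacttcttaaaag
Lmx1b intron: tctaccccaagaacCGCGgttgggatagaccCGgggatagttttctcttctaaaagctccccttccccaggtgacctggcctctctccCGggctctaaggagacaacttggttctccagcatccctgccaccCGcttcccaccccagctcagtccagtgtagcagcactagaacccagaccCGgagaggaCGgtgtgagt
The segment upstream of Lmx1b, at chr2:33644125-33644324, lies in an exon of the noncoding gene C130021I20Rik, 3614 bp from the Lmx1b TSS, and holds 15 CpGs. The Hoxa10 segment, at chr6:52234125-52234324, is coding sequence with 26 CpGs. The Grb10 segment, at chr11:12038150-12038349, is intronic, 334 bp from the TSS, and holds 4 CpGs. The segment in Lmx1b, at chr2:33640000-33640199, is intronic, 312 bp from the TSS, and holds 7 CpGs. CpG content therefore differed widely among these segments.

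Few peaks of either mark coincided with the other. Of the 20830 H3K27me3 peaks, 397 overlapped H3K27ac by at least 1 bp (1.91%, 95% interval 1.73 to 2.10). Of the 43916 H3K27ac peaks, 308 overlapped H3K27me3 (0.701%, 95% interval 0.627 to 0.784). Of all 1 kb tiles of the chromosomes, which are wider than most peaks, 1.92% overlapped H3K27ac and 1.02% overlapped H3K27me3. The share of H3K27me3 peaks was thus at that of the tiles, and the share of H3K27ac peaks was below it. Because the tiles are wider, this does not show depletion. The coinciding sequence came to 119700 bp, which is 1.14% of the bases in H3K27me3 and 0.608% of those in H3K27ac. By bases, both values were above the share of the chromosomes in the other mark, 0.723% for H3K27ac and 0.385% for H3K27me3. The 444 overlaps had a median length of 200 bp, and 13 reached 1000 bp. In 220 overlaps the H3K27me3 peak lay wholly inside an H3K27ac peak, in 103 the reverse held, and in 121 the peaks overlapped in part. A single H3K27ac peak of 19800 bp over Hoxa7 and Hoxa9 overlapped 18 separate H3K27me3 peaks. In the other direction, an H3K27me3 peak of 4250 bp over the Grb10 TSS held 5 H3K27ac peaks.

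These shares differed by score and by width, and the 2 are linked, since wide peaks have better scores. Among H3K27me3 peaks the overlap was 2.45% in the best score decile (95% interval 1.87 to 3.20), 4.03% in the second (3.27 to 4.97) and 0.816% in the last (0.510 to 1.30). By width, 1.23% of the H3K27me3 peaks under 300 bp overlapped H3K27ac, against 4.39% of those from 300 bp to under 1000 bp and 2.85% of those of 1000 bp and over. Within a width class, a better score did not go with more overlap. Under 300 bp the share was 0.971% in the best 2 deciles and 1.20% in deciles 6 to 10. From 300 bp to under 1000 bp it was 4.51% and 6.14%, and the intervals overlapped in both classes. Among H3K27ac peaks, 1.53% of the best decile overlapped H3K27me3. In the best 2 deciles the share was 2.08% for peaks of 1000 bp and over, against 0.585% from 300 bp to under 1000 bp. In deciles 6 to 10 it was 0.686% for H3K27ac peaks from 300 bp to under 1000 bp, with an overlapping interval. Both peaks had an FDR under 0.05 in 285 of the 444 overlaps, both ranked in the better 50% of their lists in 219, and both were in the best decile in 13.

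**Figure D1:**
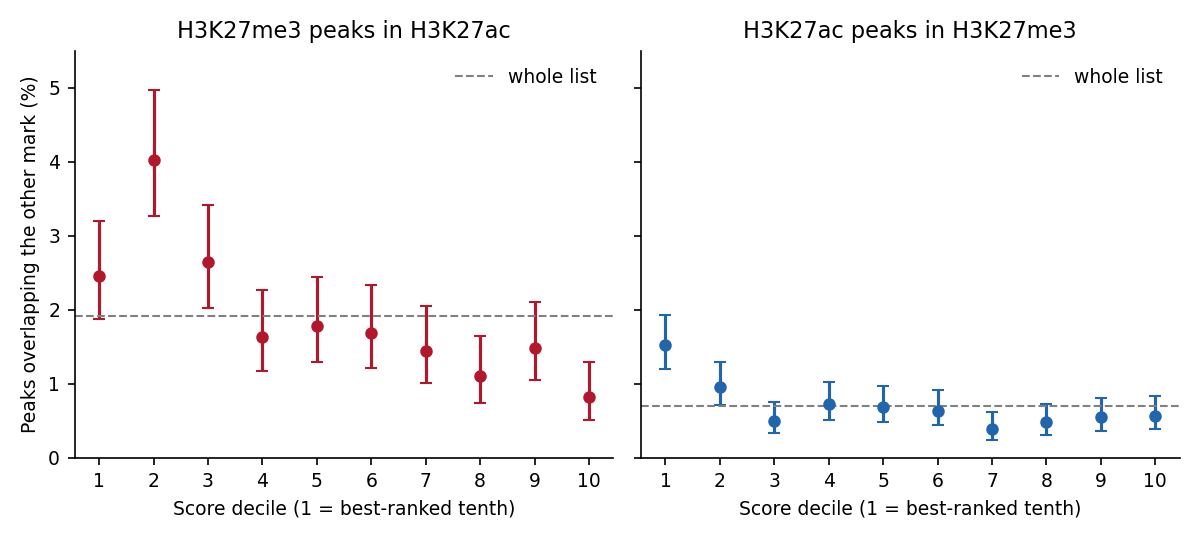
Share of H3K27me3 peaks overlapping H3K27ac (left) and of H3K27ac peaks overlapping H3K27me3 (right), in percent, by score decile. Bars are 95% Wilson intervals and dashed lines the whole lists (1.91% and 0.701%). The H3K27me3 share is highest in the second decile, at 4.03%.

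The share of H3K27me3 bases in H3K27ac differed with the score of the H3K27me3 peak. Over the whole list, the share of H3K27me3 bases inside H3K27ac (1.14%) was above the share of the chromosomes in H3K27ac (0.723%). For the best decile of H3K27me3 it was 0.512%, below the chromosome share. Just outside these best peaks, in the first 500 bp from the edge, 0.975% of bases were in H3K27ac, and 20 to 50 kb away 1.28% were. Peaks of deciles 2 to 5 showed the opposite course, with 2.22% of their bases in H3K27ac, 1.79% in the first 500 bp outside and 0.910% at 50 to 100 kb. H3K27ac was thus below the chromosome share inside the best H3K27me3 peaks and above it around them, with no replicate error available for these values. H3K4me2, a mark of promoters and enhancers mapped in the same Shh-/- limbs, overlapped 20.1% of all H3K27me3 peaks and 70.6% of the best decile, where H3K27ac overlapped 2.45%.

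**Figure D2:**
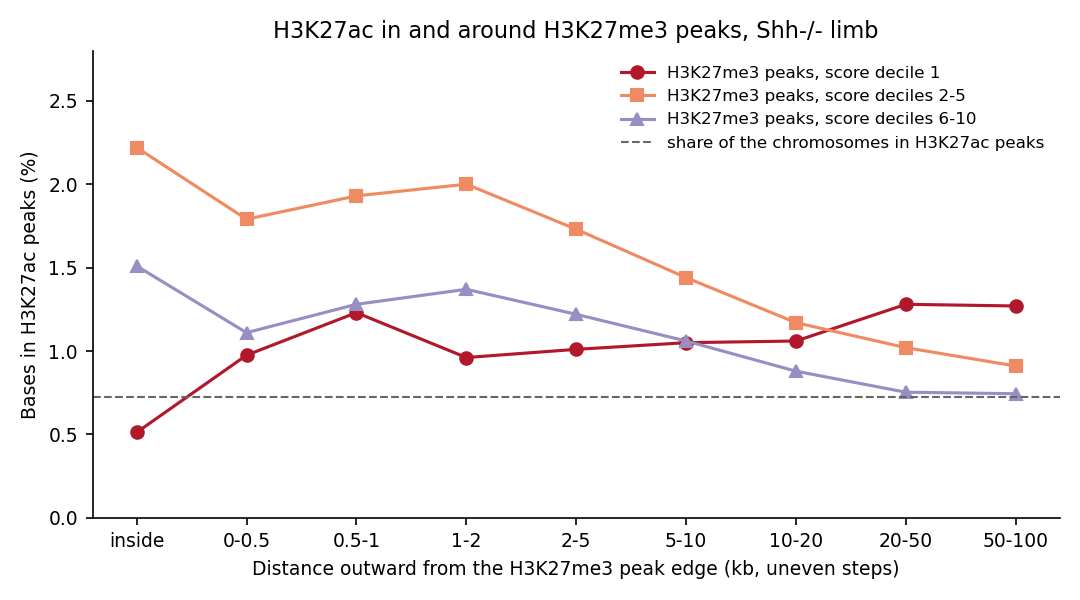
Percent of bases in H3K27ac peaks inside H3K27me3 peaks and in steps of distance outward from their edges (kb), for 3 classes of H3K27me3 score. The dashed line is the share of the chromosomes in H3K27ac, 0.723%. Inside the best decile the value is 0.512%, and inside deciles 2 to 5 it is 2.22%.

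Adjacency of the marks was little more frequent than overlap. A further 481 H3K27me3 peaks (2.31%) lay within 1 kb of an H3K27ac peak without overlap, and 15.7% lay within 10 kb, overlaps included. Of all 1 kb tiles of the chromosomes, 1.76% lay within 1 kb of H3K27ac without overlap and 16.2% lay within 10 kb. Protein-coding TSSs were far closer, with 46.1% within 10 kb. The median gap from an H3K27me3 peak to the nearest H3K27ac peak was 57300 bp, against 60251 bp for the tiles and 15061 bp for the TSSs. By score the median gap was 39900 bp in the best decile and 64700 bp in the last. Of the best decile 65.2% were in promoters, against 13.3% of the last, and the part of this in the gaps was not tested. From the H3K27ac side, the median gap to H3K27me3 was 83700 bp, against 71101 bp for the tiles.

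Coincidence of the marks was more frequent at promoters, taken as 2 kb before to 1 kb after any transcript start of a protein-coding gene. Of the 12725 H3K27ac peaks in promoters, 1.22% overlapped H3K27me3, against 0.602% of distal H3K27ac peaks weighted to the same score deciles and width classes. The difference was 0.616 percentage points (95% interval 0.393 to 0.839, counting error only). H3K27me3 peaks showed 3.54% overlap in promoters and 1.39% elsewhere, without that weighting.

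At the level of genes, H3K27me3 was found within 10 kb of the TSS of 4308 of 21938 protein-coding genes (19.6%) and H3K27ac near 10107 (46.1%). Both marks were found near 1263 genes (5.76%). These genes fell into 914 separate regions, since neighbours share peaks. H3K27ac was present near 29.3% of the genes with H3K27me3 and near 50.2% of those without, a difference of -20.8 percentage points (95% interval -22.4 to -19.3, counting error only). Within 1 kb of the TSS the shares were 8.74% and 41.9%. Among genes with H3K4me2 within 1 kb of the TSS, H3K27ac within 10 kb was found for 35.2% with H3K27me3 and 77.7% without. Among genes lacking H3K4me2 there the shares were 13.1% and 13.4%, with overlapping intervals.

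More H3K27me3 went with less frequent H3K27ac. Of the genes with under 500 bp of H3K27me3 in the window, 35.8% had H3K27ac (95% interval 33.6 to 38.1), and of those with at least 10000 bp, 20.7% had it (15.3 to 27.3). By the best H3K27me3 score, the share was 35.8% up to the 25th percentile and 18.1% above the 99th percentile. Genes with both marks carried a median of 500 bp of H3K27me3, against 1059 bp where H3K27me3 stood alone. Their median H3K27ac was 600 bp, against 800 bp where H3K27ac stood alone.

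Most genes with both marks carried them apart. Peaks of the marks overlapped in the window of 137 of the 1263 genes (10.8%), and lay under 1 kb apart without overlap in another 221 (17.5%). The median gap between the nearest peaks was 2900 bp. The mark nearer to the TSS was H3K27ac in 845 genes and H3K27me3 in 405, and the TSS itself was in both marks in 12. H3K27ac covered 36.2% of the bases in the first 500 bp after the TSS of these genes. H3K27me3 was highest in the next 500 bp, at 19.1%. Where a mark stood alone it was highest in the same bin, at 53.6% for H3K27ac and 43.8% for H3K27me3. This offset is therefore not particular to genes with both marks.

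**Figure D3:**
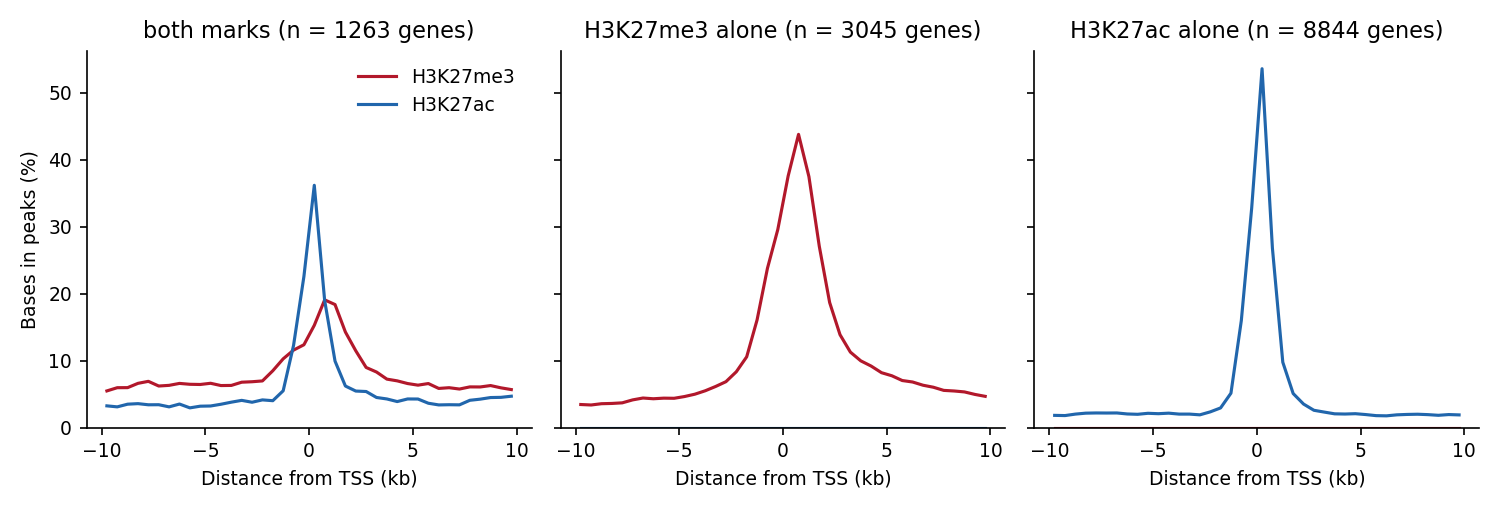
Percent of bases in H3K27me3 and H3K27ac peaks by distance from the TSS (kb, in the direction of transcription, 500 bp bins) for 1263 genes with both marks, 3045 with H3K27me3 alone and 8844 with H3K27ac alone. In genes with both, H3K27ac peaks at 36.2% just after the TSS and H3K27me3 at 19.1% slightly downstream. Where a mark stood alone it was highest in the same bin, at 53.6% for H3K27ac and 43.8% for H3K27me3.

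Limb and Hox regulators made up much of the coincidence. In the windows of the 39 Hox genes and 32 limb patterning transcription factors, 178 of 382 H3K27me3 peaks overlapped H3K27ac (46.6%). Outside them the share was 219 of 20448 (1.07%). Neither share is adjusted for H3K27ac coverage, which came to 109663 bp in the Hox windows and 179634 bp in those of the limb factors. These windows held 58769 of the 119700 coinciding bp (49.1%). Both marks were near 26 of the 39 Hox genes and 22 of the 32 limb patterning factors, beside 5.76% of all genes.

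**Figure D4:**
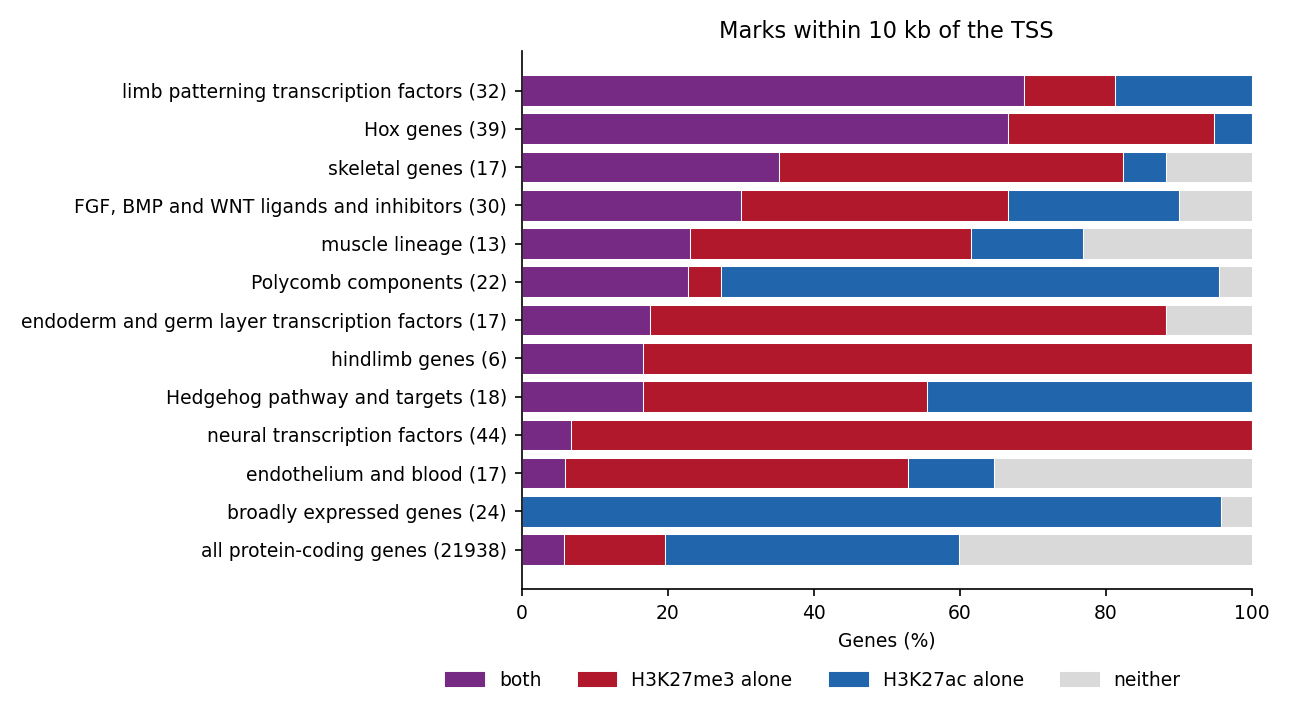
Percent of the genes of each list with both marks, H3K27me3 alone, H3K27ac alone or neither within 10 kb of the TSS, with the number of genes in brackets and all protein-coding genes at the bottom. Both marks were near 22 of 32 limb patterning factors and 26 of 39 Hox genes, 3 of 44 neural factors and 0 of 24 broadly expressed genes. Over all protein-coding genes the share was 5.76%.

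Hox genes, which assign position along the body and limb axes, ranged from H3K27me3 alone to H3K27ac alone. H3K27me3 stood alone near 11 genes, among them Hoxa13, Hoxd13, Hoxb13 and Hoxc9 to Hoxc13, where it covered between 16400 and 19551 bp of the window. Hoxb1 had 1850 bp, and the annotated start of Hoxc5 lies beside Hoxc10, so that its window describes the Hoxc10 region. H3K27ac stood alone near Hoxa4 and Hoxb2. The other 26 had both marks, and 23 of these had overlapping peaks. Hoxd10 had 10176 bp of H3K27me3 in 20 peaks and 17775 bp of H3K27ac in 8 peaks, with 9100 bp in both. Hoxa10 had 13105 bp and 15746 bp, with 10350 bp in both. Next to it, Hoxa11 had 14001 bp and 10900 bp, with 7300 bp in both. Hoxd11 had 15901 bp of H3K27me3 and 5708 bp of H3K27ac, whereas the adjoining Hoxd12 had 18287 bp and 2114 bp, and Hoxd13 had 17801 bp and none. The H3K27ac peak nearest to the Hoxd13 TSS was 13890 bp away. Hoxd9, on the other side of Hoxd10, had 7073 bp of H3K27me3 and 19101 bp of H3K27ac, and Hoxa9 had 7540 bp and 19201 bp. Neighbouring windows share peaks, so these values are not independent.

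At several limb patterning factors, short H3K27me3 peaks lay inside wide H3K27ac peaks. Tbx5 carried 13619 bp of H3K27ac in 5 peaks. Within its window lay 12 H3K27me3 peaks with 4319 bp, of which 4069 bp were inside H3K27ac. The best of these was 900 bp wide and stood at rank 2051 of the H3K27me3 list. Lmx1b had 15139 bp of H3K27ac and 4900 bp of H3K27me3, with 4800 bp in both, and its 2 longest H3K27me3 peaks, of 1250 and 1200 bp, lay wholly within acetylated peaks. Lhx9, a LIM-homeobox factor of limb mesenchyme, had 2400 of its 2450 bp of H3K27me3 in H3K27ac. Prrx1, a marker of limb mesenchyme, had 200 bp of H3K27me3, and Twist1 had 550 bp, all inside H3K27ac, which covered 9750 and 11722 bp of their windows.

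Several other limb factors had more H3K27me3 than H3K27ac. Tbx2 had 12452 bp of H3K27me3 and 500 bp of H3K27ac. Dlx5, an ectodermal homeobox gene, had 9065 bp and 600 bp. Irx5, an early proximal and anterior factor, had 8250 bp of H3K27me3 and 4500 bp of H3K27ac, while its neighbour Irx3 had nearly equal lengths, of 5650 and 5750 bp. H3K27me3 stood alone near En1, Sp8, Pax9 and Dlx6, with between 12750 and 17501 bp. En1 and Sp8 act in the limb ectoderm. Of the 5 limb ectoderm markers (Dlx5, Fgf8, Krt5, Sp8 and Trp63), 3 had H3K27me3, 3 had H3K27ac and 2 had both. Trp63 had 250 bp of H3K27ac and no H3K27me3, and Krt5 had neither mark. Among the limb patterning factors, H3K27ac stood alone near Meis1, Meis2, Prrx2, Etv4, Etv5 and Sall4.

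**Figure D5:**
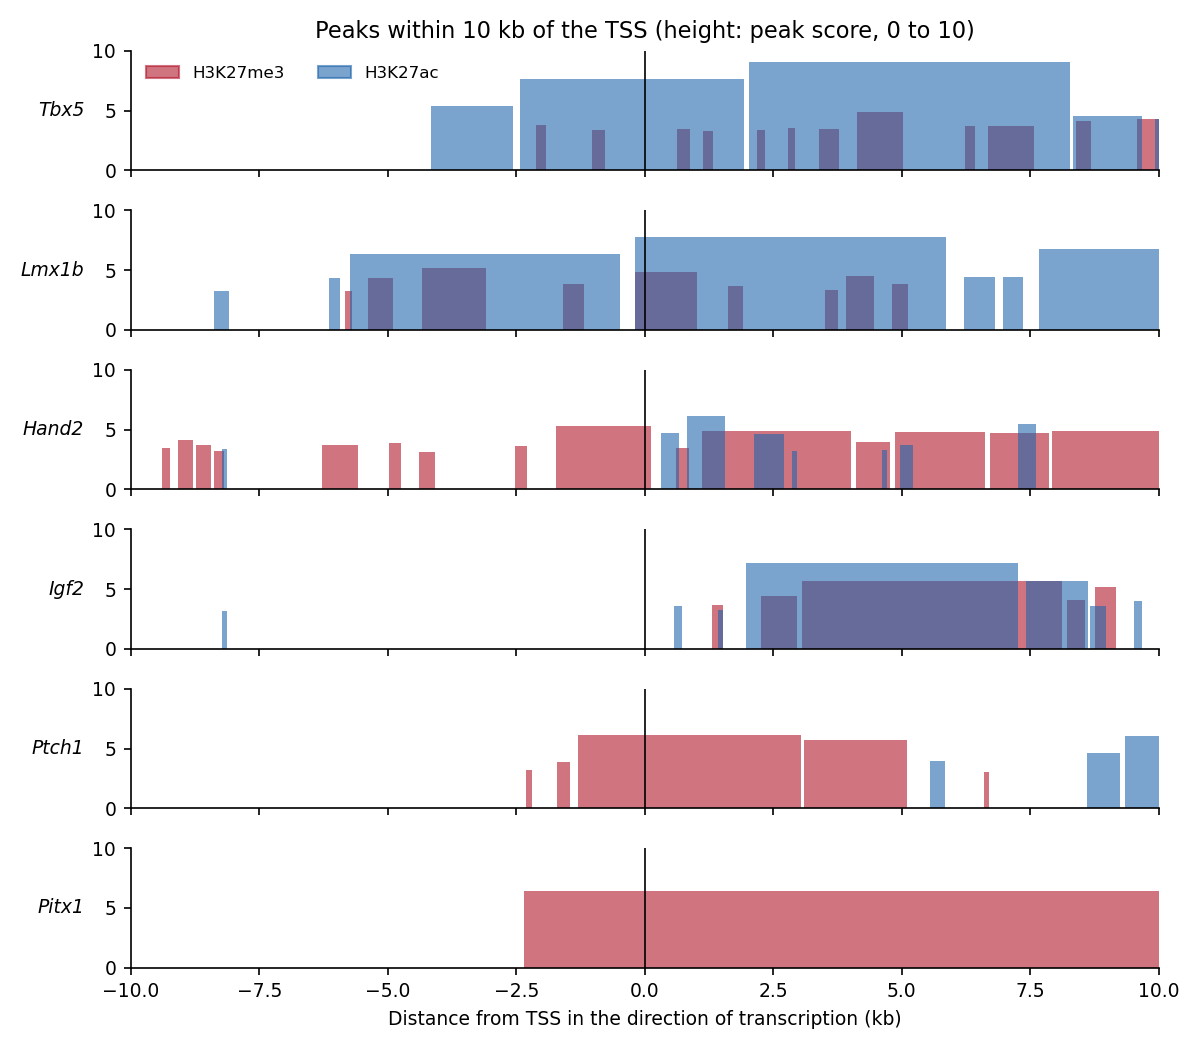
H3K27me3 and H3K27ac peaks by distance from the TSS (kb) at 6 genes, drawn to scale, with height giving the peak score, whose scale is that of each mark's own list and is not compared between marks. Purple marks overlap. At Tbx5 and Lmx1b short H3K27me3 peaks sit in wide H3K27ac peaks, at Hand2 short H3K27ac peaks sit among wide H3K27me3 peaks, at Ptch1 the marks lie apart, and Pitx1 has H3K27me3 alone.

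Genes of the Hedgehog pathway, through which Shh acts, split by role. The ligands Shh, Ihh and Dhh had H3K27me3 and no H3K27ac in the window, with 10044, 6500 and 6300 bp. The signal transducer Smo, the coreceptors Boc, Cdon and Gas1, the transcription factors Gli2 and Gli3, and Sufu and Disp1 had H3K27ac and no H3K27me3. Gli3, which encodes the main repressor form in the limb, had 7350 bp of H3K27ac. Gli1, a direct target, had 2350 bp of H3K27me3, most of it in a peak of 2100 bp and rank 285 over its TSS, and its nearest H3K27ac peak was 30275 bp away. Grem1 and Osr1 had 550 and 5367 bp of H3K27me3 and no H3K27ac. In all, 10 of the 18 genes had H3K27me3 (19.6% of all genes) and 11 had H3K27ac (46.1%), with 3 in common (16.7%, beside 5.76%).

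The 3 Hedgehog genes with both marks were Hand2, Ptch1 and Hhip. Hand2, a bHLH factor of the posterior limb, had 15 H3K27me3 peaks with 13084 bp and 8 H3K27ac peaks with 2600 bp, of which 2000 bp were in both. Its H3K27me3 covered the TSS and its nearest H3K27ac peak began 317 bp away. Ptch1, the Shh receptor and a target, had 6800 bp of H3K27me3 including a peak of 4350 bp over the TSS, and its 1602 bp of H3K27ac began 5549 bp into the gene. The marks at Ptch1 came within 450 bp of each other without overlap. Hhip, a Hedgehog inhibitor and target, had 400 bp of H3K27me3 and 844 bp of H3K27ac, separated by 7600 bp.

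Neural, endodermal and hindlimb regulators had H3K27me3 far more often than H3K27ac. All 44 neural transcription factors had H3K27me3 near the TSS (19.6% of all genes), with a median of 11825 bp. Of these, 3 (Emx2, Phox2a and Six6) also had H3K27ac, of 900, 400 and 200 bp. That share with both marks, 6.82%, lies near the 5.76% of all genes. In the joined windows of the neural list, 0.177% of the H3K27me3 bases were in H3K27ac, against 14.0% for Hox genes and 18.8% for limb patterning factors. These shares are not adjusted for the amount of H3K27ac in the windows. It came to 1500 bp in 44 joined windows, 109663 bp in 9 and 179634 bp in 31, in that order. No excess or lack of overlap can therefore be read from these shares. Of 17 endoderm and germ layer factors, 15 had H3K27me3 (88.2%, beside 19.6% of all genes) and 3 had both marks (17.6%, beside 5.76%), namely Foxa3, Gata6 and Gsc. Of the 6 hindlimb genes, all had H3K27me3 (beside 19.6% of all genes) and Tbx4 had both (16.7%, beside 5.76%). Tbx4 had 8600 bp of H3K27me3 from 22 bp before its TSS, and 1128 bp of H3K27ac, most of it in a peak of rank 1603 that ends 9173 bp upstream.

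Genes of cell types within the limb were mixed. In the muscle lineage, Pax3 and Lbx1 were among the genes with both marks, and Pax3, the marker of migrating muscle precursors, had 18335 bp of H3K27me3 and 900 bp of H3K27ac. Of 17 skeletal genes, 14 had H3K27me3 (82.4%, beside 19.6% of all genes) and 6 had both (35.3%, beside 5.76%). Sox9, which starts cartilage formation, had 1700 bp of H3K27ac and a single H3K27me3 peak of 150 bp, in the lowest decile of the list. Of 30 FGF, BMP and WNT ligands and inhibitors, 20 had H3K27me3 (66.7%, beside 19.6% of all genes) and 9 had both (30.0%, beside 5.76%). H3K27ac was near 16 of them, a share of 53.3% that lies near the 46.1% of all genes. Fgf8, the signal of the apical ridge, had 9050 bp of H3K27me3 and an H3K27ac peak of 150 bp lying 6385 bp from the TSS. Of 17 endothelial and blood genes, 9 had H3K27me3 (52.9%, beside 19.6% of all genes), 3 had H3K27ac (17.6%, beside 46.1%) and 6 had neither. The 3 with H3K27ac were Fli1, an ETS factor with 8750 bp over its TSS and no H3K27me3, Erg, with a peak of 100 bp, and Sox18, with 400 bp beside 3650 bp of H3K27me3. The defining markers of endothelium (4 genes) and blood (4 genes) had no H3K27ac peak in their windows.

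Polycomb components themselves had H3K27ac at 20 of 22 genes (90.9%, beside 46.1% of all genes). H3K27me3 was near 6 (27.3%, not far above 19.6%), and both marks were near 5 (22.7%, beside 5.76%). Bmi1, a subunit of Polycomb repressive complex PRC1, had 1600 bp of H3K27ac in 2 peaks, of which the one of 450 bp covered its TSS, and 3019 bp of H3K27me3 in 9 peaks, the nearest 732 bp away. Cbx8, another PRC1 subunit, had 10820 bp of H3K27me3 and 3000 bp of H3K27ac, with 1900 bp in both. Of the 24 broadly expressed genes, 23 had H3K27ac (95.8%, beside 46.1% of all genes) and 0 had H3K27me3 (beside 19.6%).

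Ranked by the weaker of the best scores of the 2 marks, the leading genes were Hoxd10 and Hoxd11. The weaker mark stood at the 99.6th and 98.4th score percentile. For Hoxd10 this is an H3K27me3 peak of 10900 bp that covers the Hoxd11 TSS and ends 7625 bp upstream of Hoxd10. The H3K27me3 peak over the Hoxd10 TSS itself stood at the 94.9th percentile. For Hoxd11 it is an H3K27ac peak that starts 9043 bp downstream of its TSS. The leading 20 also held Zic2 and Zic5, zinc-finger genes that share a locus, Tfap2a, Tbx4, Hoxa11, Scrt1, Hspa1b, Bmi1 and Igf2. Several other entries were neighbours in a gene-dense region. Kiss1r, Med16, Gm26602, Arid3a and R3hdm4 share an H3K27me3 peak of 5100 bp that starts 679 bp into Kiss1r, while the best H3K27ac peak in the windows of Kiss1r, Med16 and Gm26602 covers the Med16 TSS. Scrt1, a zinc-finger gene of neurons, had an H3K27me3 peak of 6450 bp and rank 19, and an H3K27ac peak of 850 bp and rank 1632 that ended 751 bp upstream of its TSS. At Hspa1b, a heat-shock gene, the strong H3K27ac peak of 2050 bp began 6239 bp downstream, and the peak nearest to the TSS was 200 bp wide.

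Imprinted genes were examined after their values had been seen, because the longest overlap of all, of 4200 bp, lay at Igf2, which encodes a fetal growth factor expressed from the paternal allele. Igf2 had 6700 bp of H3K27me3 and 7300 bp of H3K27ac, with 6250 bp in both. Its widest H3K27me3 peak, of 5050 bp, stood at the 95.7th score percentile of its list, and the H3K27ac peak over it, of 5300 bp, at the 97.7th of its own. At Grb10, all 2850 bp of H3K27ac in the window lay inside H3K27me3, which covered 5650 bp. Of 18 imprinted genes listed, 5 had both marks (27.8%, beside 5.76% of all genes), and at Cdkn1c, Dlk1 and Gnas the marks did not overlap. Whether the marks at Igf2 and Grb10 lie on different alleles was not tested.

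The coinciding peaks were also seen in other lists of the series. By the study's methods, the controls of Shh-/- limbs, labelled wild-type, combined wild-type and heterozygous littermates. Of the 397 H3K27me3 peaks overlapping H3K27ac, 307 (77.3%) overlapped H3K27ac in wild-type limbs, against 0.941% of the other H3K27me3 peaks weighted to the same score and width. This contrast is fixed in large part by the choice of peaks, since most Shh-/- H3K27ac peaks are also in the wild-type list. H3K4me2 of Shh-/- limbs overlapped 74.3% of them, against 29.0%. In NIH3T3 fibroblasts treated with DMSO, H3K27ac overlapped 26.4% of them, against 8.11%. Of the 308 H3K27ac peaks, 68.8% overlapped wild-type H3K27ac, against 71.3% of the other H3K27ac peaks so weighted, and the interval of this difference included 0 (-6.34 to 1.34 points). For NIH3T3 H3K27ac the shares were 32.1% and 46.1%, a difference of -14.0 points (interval -18.8 to -9.17). A further 133 H3K27me3 peaks overlapped H3K27ac in wild-type limbs but not in Shh-/- limbs. The lists have no replicates, so differences between conditions were not tested.

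Peaks in which the marks coincided were more often rich in CpGs. CpG-rich sequence, with over 50% G and C and an observed to expected CpG ratio over 0.6 in the central 500 bp, was found in 31.0% of the H3K27me3 peaks that overlapped H3K27ac. For the other H3K27me3 peaks the share was 15.1% at the same score and width. Among H3K27ac peaks it was 41.9% for those overlapping H3K27me3 and 22.7% for the others so weighted.

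Genes lay close to the limit of 10 kb on both sides. The farther of the marks lay 9 to 10 kb from the TSS in 131 genes and 10 to 11 kb away in 124. Just inside were Sept2, with H3K27me3 at 9994 bp, Hoxd1, with H3K27ac at 9981 bp, and Rtn2, with H3K27ac at 9975 bp. Just outside were Idh3b and Bmp1, with H3K27me3 at 10003 and 10016 bp, and Bpifc, with H3K27ac at 10005 bp. Hoxd1 counted as a gene with both marks through 20 bp of H3K27ac at the edge of its window. When each peak was counted only for the gene with the nearest TSS, a setting added after the data were seen, 769 genes had both marks.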

How the data were processed

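H3K27me3 and H3K27ac ChIP-seq of Shh-/- forelimb buds was analysed from 1 deposited peak list per mark, with groups taken from the sample labels. Per the submitters' processing notes, reads were aligned with Bowtie2 2.2.5 to mm10, and by the study's methods the authors called peaks with CisGenome. The list of each mark is taken here to cover both replicates, since 1 list is named for each mark and condition. For each peak the authors deposited a position and length and 4 measures: an FDR (a q-value), a score on which the rank is ordered, the highest log2 enrichment over input, and −log10 of the smallest Poisson p-value. Read depth cannot be read from these lists, and scores were compared only within a list.

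Scaffold peaks were left out. A gap is the number of bases between peaks. TSSs were the gene starts of 21938 protein-coding genes in basic GENCODE vM21. Promoters were instead placed around every annotated transcript start of these genes. Sequence came from the RefSeq copy of GRCm38 (the assembly mm10 names), and coordinates are 1-based. Shares weighted for score and width use score deciles and widths under 300, 300 to under 1000, and at least 1000 bp. Intervals are Wilson intervals for shares and normal approximations for differences, at 95%. Interval functions were tested on simulated data (Python 3.11.15, pandas 2.3.3). No test between groups was possible, since each mark has 1 list.

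The members and gene lists were chosen with earlier results of these data known, and the imprinted genes after seeing these values. Named genes were those of the lists with both marks (up to 4 a list), the 20 with the highest smaller score percentile, the 5 with the largest smaller covered length, the 10 longest overlaps, 9 check loci, and 3 on each side of the 10 kb limit. Other list members were named after their values were seen, to show the range. The alternatives concerned overlap, FDR, rank, list size, width, merging, base pairs, autosomes, TSS window, transcript starts and promoter width.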

Additional observations from a re-analysis of the deposited data

Results flagged for a closer look

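The H3K27me3 list held 16 peaks (0.0768% of 20846) on 7 scaffolds outside the assembled chromosomes, the best of rank 1847, which enter none of the comparisons. The H3K27ac list held 0 of 43916 there, which allows a share of up to 0.00683%.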

How the results depend on the processing

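No paired analysis was possible because each mark has 1 list made from both replicates. Of 57 alternative values, 19 stayed within the counting interval (for the gene count, within 1.5 times) and 38 moved. Only the differences between shares could change sign, and none did. The cause of the shifts was not tested, beyond what each setting leaves out. The overlapping share of H3K27me3 peaks was 1.37% when 50% of the peak had to overlap, 2.47% at an FDR under 0.05, 1.45% with lists of equal size, 2.60% for peaks of at least 300 bp, 1.54% with peaks within 1 kb merged and 1.14% by base pairs. For H3K27ac peaks these settings gave 0.414%, 0.535%, 0.879%, 0.587%, 0.794% and 0.608%. The share of H3K27me3 peaks within 1 kb of H3K27ac was 2.53% at an FDR under 0.05, 1.73% in the better 50% of each list, 1.41% with equal sizes, 2.09% for peaks of at least 300 bp, 1.99% after merging and 8.15% with a limit of 5 kb. The median gap was 52750, 77750, 94000, 63550 and 66550 bp under the first 5 of these settings and 54150 bp on autosomes. Genes with both marks numbered 825 at an FDR under 0.05, 627 in the better 50%, 456 for peaks of at least 300 bp, 700 and 2703 in windows of 5 and 20 kb, and 769 with each peak given to its nearest TSS, so this count rests on short and low-scoring peaks and on the window. The H3K27ac share of genes with H3K27me3 minus those without was -22.4 points at an FDR under 0.05, -25.6 and -11.0 points at 5 and 20 kb, -18.6 points with any transcript start and -22.8 points with nearest TSSs. The promoter minus distal difference was 0.393 points for peaks of at least 300 bp, 0.855 after merging and 0.294 with promoters of 500 bp on either side.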
